A study of Arabidopsis thaliana with 9 samples.

Results

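Nascent RNA was compared gene by gene between 1 nuclear run-on (NRO) library labelled nrpd1-3 and 1 NRO library of Col-0, the wild-type accession of Arabidopsis thaliana. The genes were chosen by identifier and count: nuclear genes of chromosomes 1 to 5 with at least 20 counts in either library. That rule kept 15241 of 32399 nuclear genes. At its edge, 187 genes had a highest count of exactly 20 and were kept, and 199 had a highest count of 19 and were not.

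Both libraries came from leaves of 3-week-old plants raised at 22 °C in long days, 16 h lit and 8 h dark. In a run-on, polymerases already engaged in isolated nuclei extend their transcripts with biotin-UTP, and the tagged RNA is captured on streptavidin beads. The nrpd1-3 line carries a mutant allele of the largest subunit of Pol IV, and the labels give neither its lesion nor how many plants were pooled. The series title poses the question of how Pol IV and Pol V affect termination by Pol II, which counts summed over genes do not measure. Steady-state nuclear RNA of both genotypes, again with 1 library each, and an NRO library of the Pol V mutant nrpe1-11 served for reference.

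Pol IV is a plant relative of Pol II that transcribes silent, repeat-rich DNA. Its short transcripts are copied by RDR2 and diced by DCL3 into small RNAs, which direct DNA methylation at matching sites where Pol V is transcribing. Transposons, pseudogenes and a few genes with methylated promoters are the classical loci kept silent by this pathway, called RNA-directed DNA methylation (RdDM).

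The Col-0 library held 2687149 gene counts and the nrpd1-3 library 8185846, and after scaling the second was 4.42 times as deep. The libraries also differed in make-up. The annotated rRNA genes took 30.3% of the Col-0 counts and 6.68% of the nrpd1-3 counts, reads outside genes took 25.8% and 18.6% of uniquely aligned reads, and reads aligned to several places took 79.8% and 48.4% of all tallied. With 1 library a genotype there is no replicate and no test. A gene is therefore called higher or lower by a size rule: the log2 ratio must reach 1 in size, and the exact 95% counting interval of the ratio must exclude 1. Ratios are taken between CPM values, which express counts relative to a library size adjusted by the TMM method (trimmed mean of M values), and log2 ratios carry a prior count of 2. Where a gene had 0 counts in Col-0, its ratio is a lower bound against a floor of 3 counts per library.

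Of the 15241 genes, 1434 were higher in the library labelled nrpd1-3 and 1074 were lower, which is 9.41% and 7.05%, or 16.5% in all. The median log2 ratio was 0.02, with quartiles at −0.43 and 0.56. Log2 ratios of 2 or more in size were reached by 409 higher and 134 lower genes. The 409 include all 150 genes without a Col-0 count, whose log2 ratio rests on the prior count, and 259 with one; the floor gives 20 of the 150 a bound of at least 4-fold. The split of directions differed with the count minimum: 6740 genes reached 20 counts in nrpd1-3 alone and supplied 1078 of the higher calls. Only 23 genes reached 20 counts in Col-0 alone, and all 23 were called lower, which the difference in depth fixes in advance. Among the 8478 genes with at least 20 counts in both libraries, 356 were higher and 863 lower. With the nrpd1-3 counts thinned to the Col-0 effective size, 803 of 9583 genes were higher and 977 lower, and among 7904 genes with a mean of at least 10 CPM the counts were 526 and 677. The last 3 views were chosen after the data were seen. Of the planned settings, at least 20 counts in both libraries with TMM refitted gave 547 higher and 604 lower. Thinning nrpd1-3 to the Col-0 total, also planned, gave 1045 higher and 870 lower of 10770. Scaling by library totals instead of TMM moved the median of all genes up by 0.51 on the log2 scale and gave 3799 higher and 322 lower calls, so that 92.2% of calls were upward against 57.2%. Each direction below is relative to the TMM scale. The 9.41% higher and 7.05% lower of all genes are the background for every list and class as measured in full. The gene lists were chosen with earlier results of these data known. Their shares beside this background are therefore descriptions, and enrichment was not tested. For counts after thinning the background is 803 higher and 977 lower of 9583. For genes with at least 20 counts in both libraries it is 356 and 863 of 8478. In the lists and classes below, thinning matches the effective size and not the total count.

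**Figure D1:**
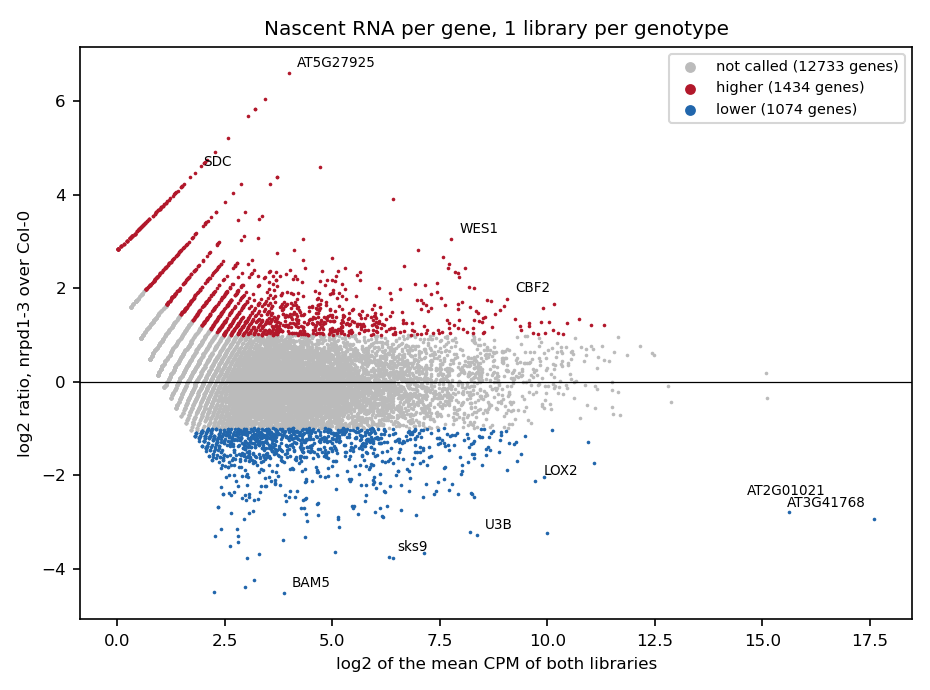
Each point is 1 of 15241 genes, with the log2 of its mean CPM over both NRO libraries on the horizontal axis and the log2 ratio of nrpd1-3 over Col-0 on the vertical axis. The 1434 higher genes are red and the 1074 lower genes blue; the slanted streaks at the left are genes with the same few Col-0 counts, the topmost streak being the 150 genes with 0, whose plotted ratio depends on the prior count.

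NRPD1 (AT1G63020, listed as NRPD1A), the gene mutated in the line, had 9 counts in Col-0 and 94 in the library labelled nrpd1-3, 2.36-fold higher (counting interval 1.19 to 5.33). In the nrpe1-11 NRO library, of 7504294 gene counts, NRPD1 had 19 counts and was under the count minimum against Col-0. A gene count does not show an insertion within the gene. Because the target was higher and not lower, all directions are those of the library with this label. Of 26 genes of the RdDM list, 15 were measured, 3 higher (20%, beside 9.41%) and 1 lower (6.67%, beside 7.05%), with a median log2 ratio of 0.08 beside 0.02 over all genes. RDR2 (AT4G11130), the RNA-dependent RNA polymerase that works with Pol IV, had 0 and 27 counts, at least 2.04-fold higher. DMS11 (AT1G19100, also named MORC6), an ATPase needed for silencing, had 8 and 75 counts and was 2.12-fold higher (1.02 to 5.09). IDN2 (AT3G48670), a protein that binds double-stranded RNA, had 26 and 36 counts and was 3.19-fold lower. The remaining measured members, among them NRPD1B (AT2G40030, the Pol V subunit NRPE1, 24 and 81 counts) and AGO4 (AT2G27040, which carries the small RNAs, 23 and 155 counts), did not meet the rule. The list of RdDM genes thinned to the same effective size kept 10 members with 1 higher and 1 lower.

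Among 12 measured genes of DNA methylation and heterochromatin, 2 were higher and 2 lower, 16.7% each beside 9.41% and 7.05% of all genes. With at least 20 counts in both libraries 0 were higher and 2 lower of 9, beside 356 and 863 of 8478. Thinned to the same effective size 1 was higher and 2 lower of 10, beside 803 and 977 of 9583. The median of the 12 genes, −0.15, became 0.38 with library totals. DML1 (AT2G36490, also named ROS1), a glycosylase that removes methylcytosine and is itself known to depend on RdDM for its expression, had 58 counts in Col-0 and 41 in the much deeper nrpd1-3 library. That is 6.25-fold lower in nascent RNA, and it was lower in steady-state RNA too, with 22 and 1 counts (log2 ratio −2.83). ATXR5 (AT5G09790), a histone H3 lysine methyltransferase of heterochromatin, was 2.61-fold lower on 26 and 44 counts. SUVH4 (AT5G13960), the histone methyltransferase that maintains non-CG methylation, had 8 and 196 counts and was 5.55-fold higher (2.76 to 13.0). MET1 (AT5G49160), the CG methyltransferase, was 2.30-fold higher (1.06 to 5.92) on 7 and 71 counts. Of 4 loci known as silenced by methylation, only SDC (AT2G17690), an F-box gene, was measured, with 0 counts in Col-0 and 69 in nrpd1-3, at least 5.21-fold higher. FWA, with 0 and 1 counts, and QQS, with 3 and 13, were under the count minimum.

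No gene of the comparison had 0 counts in nrpd1-3, whereas 150 had 0 in Col-0. These 150 held between 20 and 313 counts in nrpd1-3, with a median of 29. All were called higher, which the count minimum and the rule fix in advance. A gene with 0 and 20 counts already meets the rule (log2 ratio 2.83, interval of the ratio from 1.12). The nrpd1-3 library was 4.42 times as deep, so under this count minimum a 0 is far less likely there than in Col-0. The floor of 3 counts gives 90 of them a bound of at least 2-fold and 20 a bound of at least 4-fold, and leaves 60 with a bound under 2-fold. They comprised 118 protein-coding genes, 27 pseudogenes, 3 tRNA genes and 2 loci without a RefSeq entry. The pseudogene AT5G27925 led with 313 counts, at least 23.6-fold higher, followed by the pseudogene AT3G44215 with 213 counts, at least 16.1-fold higher. AT1G33840 (protein coding) and the pseudogene AT5G35205 had 182 counts each, at least 13.7-fold higher, the pseudogene AT5G35935 had 163, at least 12.3-fold higher, and the pseudogene AT4G04280 had 117, at least 8.83-fold higher. All 6 also had more steady-state counts in nrpd1-3, with 0 in Col-0 for 5 of them and 1 for AT4G04280. The steady-state counts in nrpd1-3 were 19 for AT5G27925, 42 for AT3G44215, 10 for AT1G33840, 11 for AT5G35205, 19 for AT5G35935 and 10 for AT4G04280. RNA of AT3G44215 passed the rule in that assay, and the other 5 were under its count minimum.

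In the nrpe1-11 NRO library these loci ranged from 0 to 309 counts. AT3G44215 had 0 counts there and AT5G27925 had 8, and there were 309 for AT1G33840, 263 for AT5G35205, 137 for AT5G35935 and 40 for AT4G04280. Over all 150 genes, 78 had at least 20 counts in nrpe1-11 and 7 had 0. The nrpe1-11 library was compared by counts alone here, and the difference between the mutants was not tested.

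Genes with a few Col-0 counts and large ratios were led, by log2 ratio with the prior count (4.58), by GPK1 (AT3G17420), named for a glyoxysomal protein kinase, with 4 and 498 counts, 28.2-fold higher (10.9 to 104). AT3G29639 had 2 and 249 counts (ratio 28.2, 7.72 to 234) and AT2G05540 had 2 and 248 (ratio 28.1, 7.69 to 233). The pseudogene AT2G13860 had 2 and 222 counts (ratio 25.1, 6.87 to 209). AT5G27850, protein coding, rests on more Col-0 counts: 23 and 1566, 15.4-fold higher (10.2 to 24.4). Steady-state RNA was higher by the rule for GPK1 and AT3G29639 (1 and 26 counts each), for AT2G13860 (0 and 39) and for AT5G27850 (7 and 46). The pseudogene AT5G19097 had 1 and 141 counts, AT1G36675 1 and 107 and the pseudogene AT4G04293 1 and 122, with ratios of 31.9, 24.2 and 27.6 and intervals that reach from 5.64, 4.26 and 4.86 up to 1269, 965 and 1100. AT5G19097 and AT1G36675 had 12 and 7 counts in the nrpe1-11 NRO library. The other genes of this paragraph were higher by the rule there too. They had 4652 counts for AT5G27850, 421 for AT2G05540, 313 for GPK1, 171 for AT3G29639, 157 for AT2G13860 and 68 for AT4G04293.

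Measured pseudogenes were 54 higher and 14 lower among 160, which is 33.8% and 8.75% beside 9.41% and 7.05% over all genes. Their median log2 ratio was 0.34. Thinned to the same effective size they were 22 higher and 10 lower among 74, beside 803 and 977 of 9583 over all genes. With at least 20 counts in both libraries they were 4 higher and 10 lower among 52, beside 356 and 863 of 8478. The other higher pseudogenes had under 20 counts in Col-0. Of 3914 pseudogenes in the files, 340 had a count in Col-0 and 545 in nrpd1-3 thinned to the same effective size, a description that does not use the count minimum. Summed over the class, pseudogenes stood at 2522 CPM in Col-0 and 3041 CPM in nrpd1-3. The lower ones included AT4G08112 with 34 and 8 counts (18.8-fold lower), AT3G43828 with 29 and 10 (12.8-fold lower) and AT5G41755 with 215 and 274 (3.47-fold lower). Reads from near-identical copies were set aside by the authors' counting, so counts of repeats are incomplete in both libraries.

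Protein-coding genes were also grouped by the number of pseudogenes among their 20 nearest annotated genes. Of 8267 with none, 9.40% were higher and 6.62% lower, and of 189 with 10 to 20 such neighbours, 8.47% were higher and 7.94% lower. Of the 324 with 6 to 9 of them, 23 were higher and 39 lower.

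Genes for small nucleolar and small nuclear RNAs lay mostly on the lower side. Small nucleolar RNAs guide the modification and cutting of rRNA. Of 26 measured, 21 were lower (80.8%, beside 7.05% of all genes) and 0 higher, with a median log2 ratio of −1.62. Their summed level was 1970 CPM in Col-0 and 347 CPM in nrpd1-3, 5.68-fold lower. U3B (AT5G53902), a gene for the U3 RNA needed to cut the rRNA precursor, had 1332 and 603 counts and was 9.76-fold lower, and U3D (AT5G54075) had 1177 and 555 and was 9.37-fold lower. SNOR111 (AT1G12013) was 7.97-fold lower on 139 and 77 counts. Steady-state RNA of U3B, with 67 and 60 counts, had a log2 ratio of 0.12, and that of U3D, with 71 and 43, −0.43, neither past the rule. Of the 20 snoRNA genes with at least 20 counts in both libraries, 18 were lower, beside 863 of 8478 over all genes.

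Spliceosomal small nuclear RNAs numbered 11 measured, with 7 lower (63.6%, beside 7.05% of all genes), 0 higher and a median of −1.32. U1.5 (AT1G08115), a gene for the U1 RNA that reads 5′ splice sites, had 901 and 1007 counts and was 3.95-fold lower, U2.7 (AT5G61455) was 3.17-fold lower on 277 and 386, and U6-29 (AT5G46315) 12.1-fold lower on 22 and 8. Their steady-state log2 ratios were −0.72 for U1.5 and 0.09 for U2.7, not past the rule. Both classes stayed lower when libraries were scaled by their totals, with 17 of 26 snoRNA genes and 4 of 11 snRNA genes still called lower and 0 of either called higher. The genes of each class include near-identical copies, for which unique reads are only part of the signal.

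The largest single difference in reads was in rRNA. AT3G41768, an annotated rRNA gene, had 784573 counts in Col-0 and 452297 in nrpd1-3, 7.66-fold lower per scaled library. AT2G01021, a short locus that follows the rRNA genes AT2G01010 and AT2G01020 in the annotation's order, was 6.86-fold lower on 195801 and 126061 counts. AT2G01010 was 3.26-fold lower, while AT2G01020 and AT3G41979 had log2 ratios of −0.23 and −0.44 and did not meet the rule. Abundant genes with identifiers shortly before AT2G01010 and AT3G41768 were not lower. AT2G01008 had 72936 and 366458 counts (log2 ratio 0.19) and AT3G41761 had 7580 and 56744 (0.76), neither past the rule. In steady-state RNA, AT3G41768 and AT2G01010 were lower as well, with log2 ratios of −1.10 and −1.35. In nrpe1-11 against the same Col-0 library, the NRO log2 ratios were −3.12 for AT3G41768 and −2.83 for AT2G01021. Whether removal of rRNA differed between libraries was not tested.

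Other noncoding RNAs were mixed. Among 58 genes of the RefSeq class ncRNA, 3 were higher (5.17%, beside 9.41% of all genes) and 8 lower (13.8%, beside 7.05%). Library totals turned that split to 14 higher and 6 lower. AT3G55485 had 579 and 198 counts and was 12.9-fold lower, AT2G43375 had 378 and 248 (6.73-fold lower) and AT1G15405 had 7404 and 9837 (3.33-fold lower). Steady-state log2 ratios of these 3 were 0.09, −0.01 and −0.04. Of 122 long noncoding RNAs 6 were higher (4.92%) and 13 lower (10.7%), which library totals turned to 25 and 6, with the median going from −0.08 to 0.43. Among them, AT5G18255 was 4.77-fold lower on 300 and 278 counts and AT4G38215 was 5.73-fold higher on 6 and 152.

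Precursors of microRNAs, which are Pol II transcripts, went the other way. Of 27 measured, 11 were higher (40.7%, beside 9.41% of all genes) and 0 lower, with a median of 0.94. Thinned to the same effective size 6 of 11 were higher and 0 lower, beside 803 and 977 of 9583 over all genes. With at least 20 counts in both libraries 3 of 6 were higher, beside 356 of 8478 over all genes. MIR168b (AT5G45307), whose product targets AGO1, had 1 and 77 counts (log2 ratio 3.39, interval of the ratio 3.04 to 697), and MIR158a (AT3G10745) had 1 and 74 (ratio 16.8, 2.91 to 670). MIR831 (AT2G24103) was 4.07-fold higher (1.52 to 15.4) on 4 and 72 counts. MIR398c, a precursor of the copper-responsive miR398, was the deepest of the class, with 186 and 2828 counts and a log2 ratio of 1.78, and MIR398b had 11 and 107 (1.09); these 2 are named after their values were seen. Summed over all precursors in the files, the class stood at 266 CPM in Col-0 and 592 CPM in nrpd1-3. The tRNA genes had few counts, and none of the 10 measured reached 20 in Col-0. Of these 10, 4 were higher (40%, beside 9.41% of all genes) and 0 lower. Like them, 6740 genes reached 20 counts in nrpd1-3 alone, and 1078 of these were higher. Thinned to the same effective size, 0 tRNA genes were left to measure. Of the 4 higher ones, 3 had 0 counts in Col-0, and the class median of 1.28 becomes 0.96 with those 3 at their bound.

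**Figure D2:**
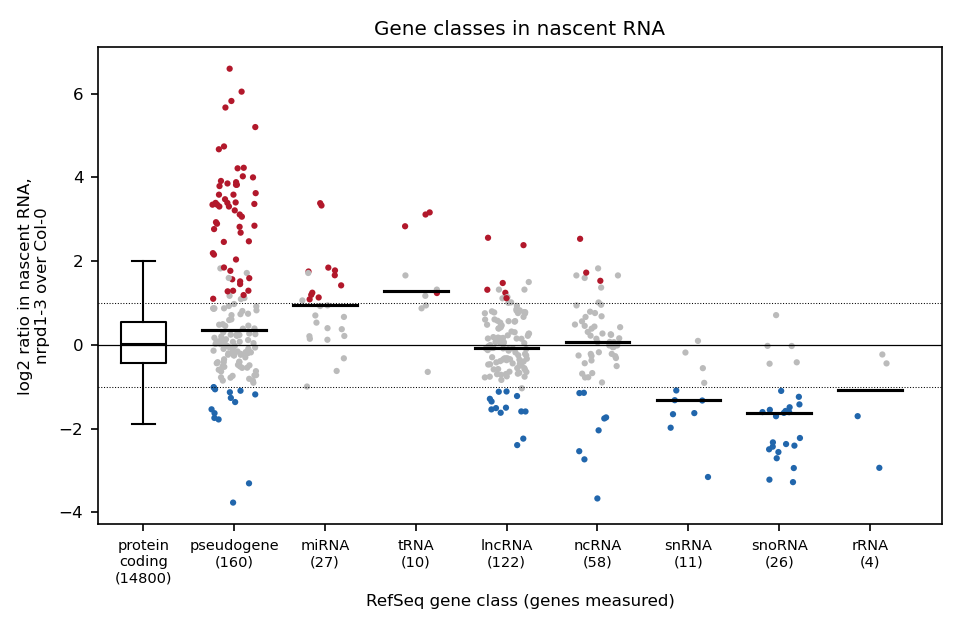
Log2 ratios of nascent RNA (nrpd1-3 over Col-0) by RefSeq gene class, with 1 point a gene, red for higher, blue for lower and grey for not called, and black bars at the medians. Protein-coding genes are drawn as a box (median and quartiles, whiskers to 1.5 times the quartile range); the 26 snoRNA and 11 snRNA genes hold no red point and the 27 miRNA precursors no blue one.

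Jasmonate is the lipid-derived hormone of the wound response, made from linolenic acid in chloroplast and peroxisome. Genes of its synthesis numbered 13, of which 7 were lower (53.8%, beside 7.05% of all genes) and 1 higher (7.69%, beside 9.41%). Their median log2 ratio was −1.21, and with nrpd1-3 thinned to the same effective size the counts were again 7 and 1. LOX2 (AT3G45140), the lipoxygenase of the first step, had 3041 and 3082 counts and was 4.36-fold lower. The allene oxide cyclases AOC1 (AT3G25760) and AOC2 (AT3G25770) were 5.26-fold and 4.97-fold lower, on 1129 and 949 counts and on 778 and 691. AOC4 (AT1G13280), of the same family, was 6.17-fold higher (2.34 to 23.0) on 4 and 109 counts. AOC3, OPR3, ACX1 and JAR1 were lower with log2 ratios between −1.67 and −1.21. LOX3 (AT1G17420), the member with most counts (9102 and 24702), had a log2 ratio of −0.70 and did not meet the rule. In steady-state RNA 8 of 11 measured members were lower and 0 higher, with a median of −1.29.

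Downstream of synthesis, of 11 measured JAZ genes, which encode the repressors degraded upon jasmonate perception, JAZ8 (AT1G30135, 203 and 191 counts, 4.70-fold lower) and JAZ10 (AT5G13220, 450 and 597, 3.33-fold lower) were lower. JAZ1 (AT1G19180), with 2553 and 10926 counts, had a log2 ratio of −0.05. Genes of turnover and output were 5 lower (45.5%, beside 7.05%) and 1 higher (9.09%, beside 9.41%) of 11. CYP94C1 (AT2G27690), which oxidises the active hormone, was 5.26-fold lower on 1138 and 955 counts, IAR3 (AT1G51760), which cleaves its amino-acid conjugate, 3.74-fold lower on 913 and 1078, and TAT3 (AT2G24850), a jasmonate-induced aminotransferase, 4.47-fold lower on 636 and 628. ORA59 (AT1G06160), the factor at which jasmonate and ethylene signals meet, was 2.21-fold higher on 38 and 371 counts. In steady-state RNA 5 of 10 measured JAZ genes (median −1.01) and 6 of 7 turnover and output genes (median −2.01) were lower, and 0 of either were higher. MYC2 (AT1G32640), the master transcription factor of the response, had 2453 and 14648 counts and a log2 ratio of 0.43. Scaling by library totals left 4 of 13 synthesis genes and 4 of 11 turnover genes lower, and turned the sign of the JAZ list's median from −0.36 to 0.17.

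Of 10 early ethylene-response factor genes, which encode stress-induced transcription factors, 4 were higher and 0 lower: ERF104 (AT5G61600) with 71 and 2214 counts, 7.06-fold (5.57 to 9.07), AT5G51190 (also named ERF105) with 144 and 3446, 5.42-fold, ERF5 (AT5G47230) with 181 and 4004, 5.01-fold, and ERF6 (AT4G17490) with 280 and 4953, 4.00-fold. Higher members were 40% of this list, beside 9.41% of all genes. Its deepest member, RRTF1 (AT4G34410), had 5069 and 21028 counts and a log2 ratio of −0.09. In the touch and cold list, 3 of 13 were higher (23.1%, beside 9.41%) and 2 lower (15.4%, beside 7.05%), and with library totals 7 and 1. The higher ones were the cold-response activators CBF1 (AT4G25490; 189 and 4525 counts, 5.42-fold), CBF2 (AT4G25470; 541 and 8193, 3.43-fold) and DREB1A (AT4G25480, also named CBF3; 7 and 160, 5.17-fold), which lie side by side on chromosome 4. LTI78 (AT5G52310, also named RD29A) and KIN1 (AT5G15960), known targets of these activators, were 4.59-fold lower on 805 and 774 counts and 2.95-fold lower on 22 and 33. The other cold-output genes of the list did not meet the rule. COR47 (AT1G20440) had 2476 and 14144 counts and a log2 ratio of 0.37, and COR15A (AT2G42540) had 30 and 119 and −0.15.

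Among 21 measured genes of salicylic acid and defence, 2 were higher (9.52%, beside 9.41% of all genes) and 3 lower (14.3%, beside 7.05%). Library totals turned this split to 6 and 2, and upper-quartile scaling to 3 and 2. WRKY18 (AT4G31800), a pathogen-induced transcription factor, was 4.09-fold lower on 3474 and 3756 counts, and WRKY6 (AT1G62300) 3.62-fold lower on 86 and 105. Its relative WRKY60 (AT2G25000) was 3.51-fold higher on 4 and 62 counts, while WRKY40 (AT1G80840), the third of the WRKY18, WRKY40 and WRKY60 trio, had 4566 and 24799 counts and a log2 ratio of 0.30. BGL2 (AT3G57260), the glucanase also named PR2, was 2.01-fold lower on 142 and 312 counts, and WRKY54 (AT2G40750) 2.09-fold higher on 24 and 222.

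**Figure D3:**
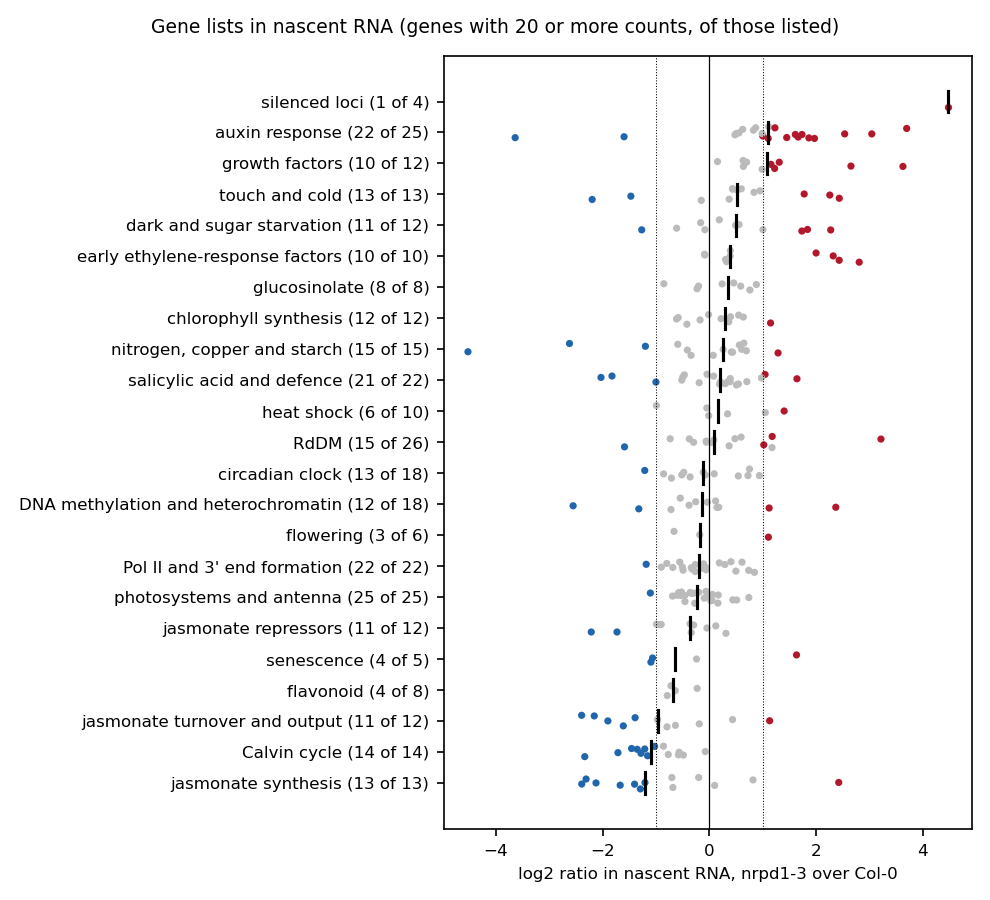
Log2 ratios in nascent RNA (nrpd1-3 over Col-0) of the measured members of each gene list other than the cell-type markers, with 1 point a gene, red for higher, blue for lower and grey for not called; black bars are list medians and dotted lines mark the 2-fold limits. Below SDC, the single silenced locus measured, auxin and growth lists lie highest of those drawn with medians of 1.11 and 1.07, and the Calvin cycle and jasmonate synthesis lists at the bottom with −1.09 and −1.21.

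Of 22 measured auxin response genes 12 were higher (54.5%, beside 9.41%) and 2 lower (9.09%, beside 7.05%), and the list median was 1.11. WES1 (AT4G27260), an auxin-conjugating enzyme of the GH3 family, had 104 and 3808 counts and was 8.29-fold higher (6.82 to 10.2). AXR3 (AT1G04250), the auxin repressor IAA17, had 0 and 39 counts, at least 2.94-fold higher, and SAUR23 (AT5G18060), of a family of small growth-promoting proteins, had 4 and 118, 6.68-fold higher (2.54 to 24.9). Others of the GH3 family went the other way: DFL2 (AT4G03400) had 138 and 46 counts and was 13.3-fold lower, and GH3.3 (AT2G23170) was 3.08-fold lower on 94 and 135. Among the 11 members with at least 20 counts in both libraries, 4 were higher and 2 lower. The SAUR19 to SAUR24 cluster encodes near-identical genes, and its unique counts are partial.

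Growth factors, a list of bHLH transcription factors and expansins, were 5 higher (50%, beside 9.41%) and 0 lower of 10, with a median of 1.07. With at least 20 counts in both libraries they were 2 higher and 0 lower of 7. HBI1 (AT2G18300) had 34 and 377 counts and was 2.51-fold higher (1.76 to 3.68). BEE1 (AT1G18400), induced by brassinosteroid, had 0 and 37, at least 2.79-fold higher, and BEE3 (AT1G73830) had 1 and 45 (ratio 10.2, 1.74 to 411). Of 11 measured genes known to answer to darkness and sugar starvation, 3 were higher (27.3%, beside 9.41%) and 1 lower (9.09%, beside 7.05%). The 3 encode cell-wall glycosidases: XYL1 (AT1G68560) with 36 and 781 counts (4.91-fold), BGAL4 (AT5G56870) with 36 and 577 (3.63-fold) and BXL1 (AT5G49360) with 426 and 6262 (3.33-fold). Each was higher in steady-state RNA as well, with log2 ratios of 1.73, 2.40 and 1.58. DIN11 (AT3G49620) was 2.51-fold lower on 25 and 44 counts, and ASN1 (AT3G47340), the dark-induced asparagine synthetase, had 1204 and 6052 and a log2 ratio of 0.19.

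Photosynthesis genes were described in a pair of lists, and the difference between the lists was not tested. Of 25 photosystem and antenna genes, 1 was lower (4%, beside 7.05% of all genes) and 0 higher. The lower one was LHCB5 (AT4G10340), an antenna protein of photosystem II, 2.15-fold lower on 1264 and 2594 counts. Of 14 Calvin cycle genes, 8 were lower (57.1%, beside 7.05%) and 0 higher, and all 14 log2 ratios were below 0, with a median of −1.09. The Rubisco small subunit gene RBCS3B (AT5G38410) was 5.08-fold lower on 408 and 355 counts, RBCS2B (AT5G38420) had 256 and 343 (log2 ratio −1.71), and RBCS1A (AT1G67090) was 2.75-fold lower on 1332 and 2142. RCA (AT2G39730), Rubisco activase, was 2.43-fold lower on 1956 and 3555. In steady-state RNA, 0 of 12 measured Calvin cycle genes met the rule in either direction, and their median was −0.17. Scaling by library totals left 2 of the 14 lower, and gave the photosystem list 2 higher, 0 lower and a median of 0.30 in place of −0.24. Chlorophyll synthesis genes were 1 higher (8.33%, beside 9.41% of all genes) and 0 lower of 12. The higher one was POR C (AT1G03630), a light-dependent reductase, 2.26-fold on 18 and 180 counts. With at least 20 counts in both libraries 0 of 10 were higher and 0 lower.

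Among 15 genes of nitrogen, copper and starch use, 3 were lower (20%, beside 7.05%) and 1 higher (6.67%, beside 9.41%). Library totals turned that split to 5 higher and 2 lower. BAM5 (AT4G15210), a beta-amylase, had 63 counts in Col-0 and 9 in nrpd1-3 and was 30.9-fold lower, and NRT1.8 (AT4G21680), a nitrate transporter, had 97 and 67 and a log2 ratio of −2.62. The copper/zinc superoxide dismutase CSD2 (AT2G28190), a target of miR398, was 2.37-fold lower on 29 and 54 counts, and the iron superoxide dismutase FSD1 (AT4G25100) 2.45-fold higher on 88 and 953. The lowest ratios with at least 100 counts were those of sks9 (AT4G38420, 334 and 106 counts) and AT5G13210 (356 and 113), both 13.9-fold lower in nascent RNA and lower in steady-state RNA with log2 ratios of −3.29 and −2.55. AT2G35750 had 4127 and 1938 nascent counts and was 9.41-fold lower, but 1949 and 1602 steady-state counts and a log2 ratio of 0.00. AT4G14368 was 10.9-fold lower on 84 and 34.

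Genes of Pol II and of 3′ end formation, the machinery named by the series title, were 1 lower and 0 higher of 22. That is 4.55% lower and 0% higher, beside 7.05% and 9.41% of all genes. The lower one was PAPS2 (AT2G25850), a poly(A) polymerase, 2.28-fold lower on 205 and 397 counts. PAPS1 (AT1G17980) had 744 and 1890 counts and a log2 ratio of −0.80. In steady-state RNA PAPS1 was lower on 156 and 38 counts (log2 ratio −1.71). It was the 1 lower gene there among 10 measured of the list, with 0 higher and a list median of 0.18. Its NRO log2 ratio in nrpe1-11 was −2.34. The list's median of −0.19 became 0.33 with library totals, with 4 higher and 0 lower. The circadian clock gave 1 lower (7.69%, beside 7.05%) and 0 higher of 13. The lower one was RVE8 (AT3G09600), 2.34-fold, and library totals gave the list 3 higher and 0 lower. Heat shock gave 1 higher (16.7%, beside 9.41%) and 0 lower of 6, HSP90.1 (AT5G52640, 4 and 52 counts, 2.94-fold). Flowering gave 1 higher (33.3%, beside 9.41%) of 3, SVP (AT2G22540, 2.18-fold). Senescence genes were 1 higher (NAP, AT1G69490, 3.12-fold) and 2 lower (NAC6, AT5G39610, and SAG13, AT2G29350, 2.21-fold and 2.16-fold) of 4, and with library totals or upper-quartile scaling 1 higher and 0 lower. Flavonoid and glucosinolate genes gave 0 calls in either direction among 4 and 8 measured.

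Mesophyll markers were the most abundant of the cell-type lists by summed level, and some markers of other tissues were at 0: the floral regulator AG and the root-hair regulator MYB66 (WER) had 0 counts in both libraries and the meristem gene STM 1 and 4. The 4 mesophyll markers summed to 2236 CPM in Col-0 and 1160 CPM in nrpd1-3, with RBCS1A and RCA lower. LHCB3 had a log2 ratio of −0.27 and was not called. With library totals 0 of the 4 were called lower, and their median log2 ratio went from −1.11 to −0.58. The 4 epidermis markers summed to 52.0 and 73.3 CPM, with ATML1 (AT4G21750) 2.17-fold higher. Of 3 root markers, SCR (AT3G54220, 28 and 254 counts) and PYK10 (AT3G09260, 34 and 399) were 2.05-fold and 2.66-fold higher, and the list summed to 27.8 and 66.2 CPM. Of 4 markers of dividing cells, CDKB2;1 (AT1G76540) had 0 and 48 counts, at least 3.62-fold higher, while SYP111 had 10 and 26 and the list summed to 8.51 and 11.8 CPM. Guard cell, trichome and phloem markers gave 0 calls among 2, 1 and 1 measured. Fewer cells of a type and less RNA per cell cannot be told apart here, and the part of these markers in the results above was not tested.

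Steady-state nuclear RNA was shallow, at 709905 gene counts in Col-0 and 386011 in nrpd1-3, and 2882 of the genes could be measured in it. Of these, 8.36% were higher and 11.6% lower in RNA, 19.9% in all, and 5.76% were higher and 9.68% lower in NRO. Of 166 genes higher in NRO, 84 were higher in RNA, which is 50.6% of the NRO list and 34.9% of the 241 in the RNA list. Of 279 lower in NRO, 150 were lower in RNA, 53.8% of the NRO list and 45.0% of the 333 in the RNA list. Calls in opposite directions numbered 4. A further 1268 higher and 795 lower NRO calls had too few RNA counts to compare. Strongly lower in both assays, beside sks9 and AT5G13210, were AT5G38710 (log2 ratios −2.89 and −2.89), AT1G22830 (−2.88 and −3.45), AT1G51820 (−2.78 and −4.19) and DML1.

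**Figure D4:**
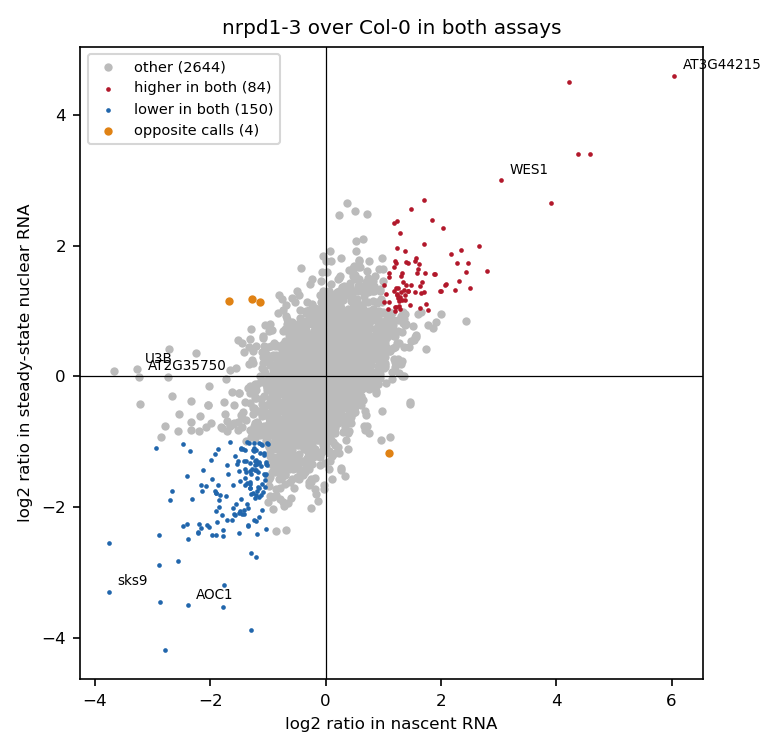
Log2 ratios of nrpd1-3 over Col-0 in nascent RNA (horizontal) and steady-state nuclear RNA (vertical) for the 2882 genes measured in both. Red and blue points are the 84 genes higher and 150 lower in both assays, orange points the 4 with opposite calls, and U3B and AT2G35750 lie far to the left at a steady-state ratio near 0.

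Nascent ratios varied with how much steady-state RNA a gene has for its nascent signal. That quantity was taken from the nrpe1-11 libraries, which enter neither side of the comparison, as the log2 of RNA CPM over NRO CPM. It was split into quintiles over the genes with at least 10 RNA counts there. The nrpe1-11 NRO level is the denominator, so a difference from Col-0 shared by both mutants moves a gene's quintile and its ratio together. The median level, as mean CPM of both compared libraries, fell from 177 in the lowest quintile to 16.9 in the highest. From the lowest to the highest quintile the median NRO log2 ratio of nrpd1-3 over Col-0 was 0.24, 0.06, −0.04, −0.10 and −0.32. Lower calls numbered 39, 55, 34, 29 and 147, and higher calls 138, 82, 51, 55 and 31, out of between 1016 and 1018 genes each. With a mean of at least 10 CPM the outer medians were 0.24 and −0.39. The steady-state ratio did not follow the same course, with medians of −0.17, −0.07, 0.21, 0.20 and 0.21. Of the gene groups above, 12 of 13 Calvin cycle genes, 11 of 14 snoRNA genes and 7 of 9 snRNA genes lay in the highest quintile, and 9 of 9 ethylene-response factors and 9 of 9 touch and cold genes in the lowest. Jasmonate synthesis genes, though lower in nrpd1-3, lay mostly in the lowest quintile, 7 of 12, with 0 in the highest. Whether carry-over of steady-state RNA through the bead capture differed between the libraries was not tested.

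**Figure D5:**
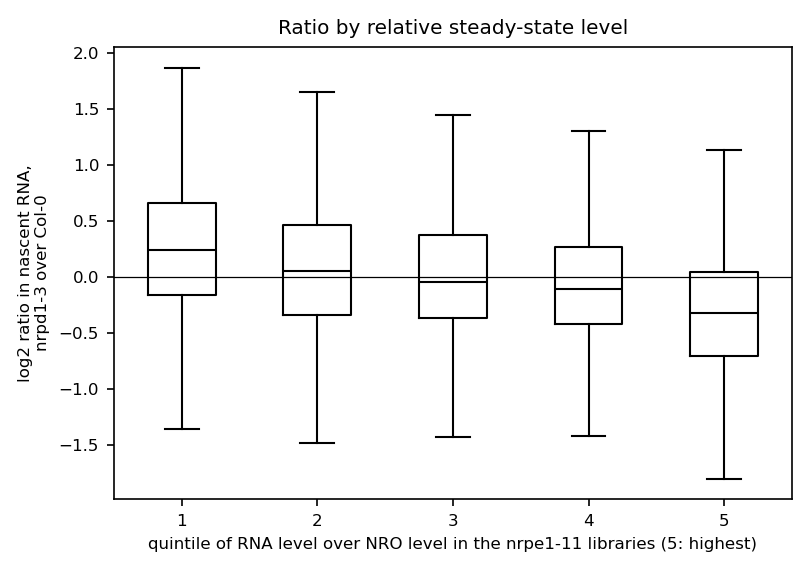
Log2 ratio of nascent RNA (nrpd1-3 over Col-0) in quintiles of the steady-state over nascent level of each gene, measured in the nrpe1-11 libraries; boxes show medians and quartiles, whiskers reach to 1.5 times the quartile range and points beyond are not drawn. Medians go from 0.24 in the lowest quintile to −0.32 in the highest.

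Neighbouring genes tended to share a call. Among 7802 adjacent pairs of measured genes, 13.0% of the neighbours of a higher gene were higher, beside 9.43% of all genes in such pairs, and 16.5% of the neighbours of a lower gene were lower, beside 6.61%. Runs of 4 neighbours with the same call numbered 3, all higher. The run on chromosome 2 held AT2G40130 (named SMXL8 among its synonyms), the zinc-finger gene CZF1 (AT2G40140), TBL28 and TBL30, with CZF1 at 1856 and 19642 counts, 2.40-fold. The run on chromosome 4 held AT4G26540, the long noncoding RNA AT4G26542, AT4G26550 and AT4G26555, with log2 ratios of 1.18, 2.56, 1.64 and 1.17. The run on chromosome 5 held AT5G19230, AT5G19240, AT5G19250 and FAF3 (AT5G19260), with AT5G19240 at 1042 and 10462 counts, 2.27-fold. Without a stated strand setting, reads that run from a gene into its neighbour or lie on the opposite strand cannot be told apart from the neighbour's own.

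The nrpe1-11 NRO library was set against the same Col-0 library, so each of its ratios shares that library's error with the nrpd1-3 ratio beside it. With that said, the log2 ratios in nrpd1-3 and nrpe1-11 were 3.04 and 3.61 for WES1, 2.81 and 3.23 for ERF104, −2.39 and −2.53 for AOC1, −3.28 and −3.26 for U3B, and 1.73 and 2.67 for BXL1. RBCS1A stood at −1.46 and −0.85 and RCA at −1.28 and −0.52, both lower by the rule in nrpd1-3 and not in nrpe1-11. SUVH4 stood at 2.37 and 0.08, from 196 counts in nrpd1-3 and 40 in nrpe1-11. PYK10 stood at 1.39 and 0.75. These differences between the mutants were not tested.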

How the data were processed

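The authors deposited unnormalised read counts for every gene. The submitters' processing notes name Trimmomatic 0.33, TopHat2 2.1.0, HTSeq and the TAIR10 build. For HTSeq the version, mode and strand setting are not given in the sources used here. The kit was a stranded mRNA kit, per the labels. Each file held 32678 genes; 279 organelle genes had 0 counts and 5 summary lines were left out, among them multiply aligned reads, so near-identical genes are under-counted. Names, classes and gene order came from an NCBI table of TAIR10.1, which matched 15220 of 15241 genes.

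Library sizes were scaled by TMM in edgeR 4.0.16 (R 4.3.3). Intervals were exact conditional binomial (Clopper-Pearson, 95%, scipy 1.17.1), and they and the floor of 3 counts cover counting error only. The rule was tried on simulated counts that held counting error only, for genes with an expected Col-0 count of at least 20. Genes with fewer Col-0 counts and variation between plants were outside that trial. Alternatives covered scaling, including DESeq2 1.42.0, filters, depth, prior count and thresholds.

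Members and the 31 gene lists (344 genes) were chosen with earlier results of these data known. Named genes were NRPD1 and called genes of the methylation and silenced-locus lists, then up to 3 highest, 3 lowest and the most abundant of each other list. Extremes of ratio, count, class and agreement with RNA, and runs of 4 neighbours, were added. Other genes were named after their values were seen.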

Additional observations from a re-analysis of the deposited data

Results flagged for a closer look

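For 4 genes, nascent and steady-state RNA met the size rule in opposite directions under the same contrast of nrpd1-3 over Col-0. The difference between the assays was not tested, since each rests on 1 library a genotype. AT1G27520, listed with the synonym mannosidase 5, had a nascent log2 ratio of −1.27 (89 and 161 counts in Col-0 and nrpd1-3) and a steady-state log2 ratio of 1.18 (17 and 34 counts). FBP (AT1G43670), the fructose-bisphosphatase of sucrose synthesis, stood at −1.68 (61 and 82 counts) and 1.15 (13 and 26). ML3 (AT4G18120), a transcribed pseudogene of the MEI2-like family, stood at −1.13 (166 and 333) and 1.14 (45 and 84). AT1G73530 stood at 1.09 (251 and 2370) and −1.18 (22 and 7). The steady-state counts behind these calls are few. The number of opposite calls was 1 in place of 4 with library totals, 2 with a 99% interval, 20 at a 1.5-fold threshold and 0 at 4-fold.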

How the results depend on the processing

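No paired analysis was possible because each genotype had 1 NRO library. With 1 library a group nothing could be left out. Library totals gave 3799 higher, 322 lower and 4121 calls in total, a median of 0.54, and 337 higher and 45 lower in both assays. Without a filter the median was 0.15. At least 50 counts in either library left 694 lower. At least 20 in both, with TMM refitted, gave 547 higher, 604 lower and 1151 in total. At least 10 CPM in either gave 891 higher and 1607 in total. A 1.5-fold threshold gave 2231 higher, 2267 lower and 4498 in total, with 197 and 308 in both assays. A 4-fold threshold gave 409, 134 and 543, with 7 and 17 in both assays; the 409 include 150 genes at 0 in Col-0, only 20 of them with a bound of at least 4-fold. Added after seeing the data, a mean of at least 10 CPM gave 526, 677 and 1203 with a median of −0.10, and nrpd1-3 thinned to the Col-0 effective size gave 803 higher and a median of −0.080. No other setting tried moved these counts by more than 1.5 times. Of 166 named genes 137 were called; 121 kept their call under all 5 other scalings, 16 lost it under library totals, and 0 turned sign there. The Col-0 library is the shallower, and genes with few counts there have wide intervals, as the printed bounds show.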

Other observations

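Families grouped by the prefix of their RefSeq symbol were scanned after the lists, and those named here were chosen after their values were seen. Genes of the KCS prefix, the elongases that make very-long-chain fatty acids for cuticular wax and other lipids, were 6 higher and 0 lower of 15, 40.0% beside 9.41% over all genes. KCS3 had 85 and 1494 counts in Col-0 and nrpd1-3 and a log2 ratio of 1.98, KCS8 had 19 and 449 (2.37) and KCS6, the elongase of stem wax, 58 and 706 (1.45). Genes of the CSLA prefix, glucomannan synthases, were 0 higher and 5 lower (55.6%, beside 7.05% over all genes) of 9, among them CSLA10 with 35 and 50 counts (−1.57) and CSLA01 with 20 and 6 (−3.31). The XTH genes, which cut and rejoin xyloglucan in the cell wall, were 4 higher (25%, beside 9.41%) and 0 lower of 16, with XTH17 at 24 and 457 counts (2.07) and XTH4 at 95 and 1066 (1.34). IDD zinc-finger genes were 4 higher (50%, beside 9.41%) and 0 lower of 8, and glutamate-receptor-like GLR genes 0 higher and 4 lower (30.8%, beside 7.05%) of 13. No test was made of these shares.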
